A study of Sus scrofa with 2 samples.

Results

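The miR-29 family was represented on the array by 3 of the 355 probes, namely every probe whose name begins with ssc-miR-29 and a letter (ssc-miR-29a, ssc-miR-29b and ssc-miR-29c). The rule takes probes by name and uses no measured value. Their signals were read in anterior pituitary RNA from 20-day-old female piglets of 2 breeds, Bama minipigs (YB), a small Chinese breed, and Landrace pigs (YC), a large commercial breed. RNA of 3 piglets was pooled per breed. Each pool was hybridized to 1 array, so the spread between pigs is unknown, the breeds could not be tested against each other, and the number of arrays sets the precision of every value.

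In mammals, miR-29 miRNAs bind the 3′-UTRs of many mRNAs for collagens and other matrix proteins, such as elastin and fibrillin, and lower their output. The family is best known from fibroblasts, where low miR-29 accompanies fibrosis. A miRNA recognises its targets mainly through its seed, bases 2 to 8, so miRNAs with one seed share many targets. The anterior pituitary consists mostly of hormone-producing cells, with a minor part of connective tissue and vessels that make collagen. The collagen transcripts of these pituitaries were not analysed here.

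The mature sequences listed for the 3 probes are shown 5′ to 3′ with bases 2 to 8 in capitals, because the members differ in their ends and in single bases.
ssc-miR-29a: cUAGCACCaucugaaaucgguua
ssc-miR-29b: uAGCACCAuuugaaaucagu
ssc-miR-29c: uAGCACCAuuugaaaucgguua
ssc-miR-29b and ssc-miR-29c have the seed AGCACCA. The listed ssc-miR-29a starts 1 base earlier, so these letters lie at its bases 3 to 9 and its bases 2 to 8 read UAGCACC. Aligned on these letters, all 3 begin with the same 9 bases, uagcaccau, from the U before the shared letters. Positions are counted from 1 at the 5′ end of ssc-miR-29c. Against ssc-miR-29c, the 22 aligned bases of ssc-miR-29a hold 1 difference, U10C. The 20 aligned bases of ssc-miR-29b also hold 1 difference, G18A, and ssc-miR-29b stops 2 bases before the 3′ end of ssc-miR-29c. With so few differences, a probe may also bind another member, and how much each probe did so was not tested.

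Among the other 352 probes, the letters AGCACCA occur only in ssc-miR-218, at bases 13 to 19 and thus outside its seed (augguucugucaAGCACCAug, shared letters in capitals). Its signal was 1.27 for Bama minipigs against 3.58 for Landrace, near the bottom of both arrays. No other probe on the array had the miR-29 seed.

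The RefSeq annotation of Sscrofa11.1 holds 4 genes for the 3 members. MIR29B-1 and MIR29A are next to each other, with LOC110257572 and KLF14 as the flanking genes. MIR29B-2 and MIR29C form the other pair, with LOC106507884 and CD46 as the flanking genes. ssc-miR-29b is therefore encoded at both loci, once beside each of the other two members. Neighbouring miRNA genes are often cut from one shared primary transcript. The array measures mature miRNA and cannot tell MIR29B-1 from MIR29B-2.

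The signal of ssc-miR-29b was 5615 in Bama minipigs against 3032 in Landrace, 1.85-fold higher or 0.89 as a log2 ratio of Bama minipigs over Landrace. ssc-miR-29a had 14050 against 13713, which is 0.035 as a log2 ratio. ssc-miR-29c had 10679 against 10261, or 0.058. Thus ssc-miR-29b was the member that differed between the pools, while the signals of ssc-miR-29a and ssc-miR-29c were 2.46% and 4.07% apart. Signals are linear intensities that the authors corrected for background and then normalized by LOWESS. The study spotted each probe repeatedly and gives spot SDs and detection calls in its supplement, which were not used here. The deposited table holds only the mean per probe, so no error within an array is given, and signal minimums stand in for detection calls.

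**Figure D1:**
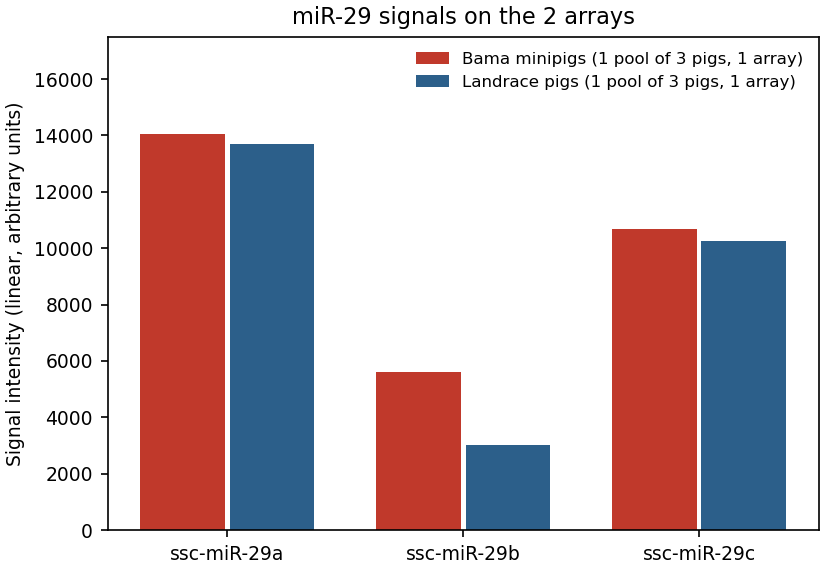
Signal intensity (linear scale, arbitrary units) of the 3 miR-29 probes, with 1 bar per array and no error bars because each breed had 1 pool on 1 array. The bars of ssc-miR-29a and ssc-miR-29c are nearly level between breeds, whereas ssc-miR-29b stands at 5615 for Bama minipigs against 3032 for Landrace.

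None of the 3 members (0 of 3) differed by 2-fold or more. In the background of all 355 probes 34.6% did, and among the 98 probes with a signal of 1000 or more on both arrays 9.18% did. At 1.5-fold or more, a limit chosen after the values were seen, ssc-miR-29b passed, as did 49.9% of all probes and 16.3% of the 98. These are rules of size and not tests.

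All 3 members gave strong signals. The median probe read 114 for Bama minipigs against 95.1 for Landrace. ssc-miR-29a held rank 10 of 355 for Bama minipigs and rank 9 for Landrace, and ssc-miR-29c held ranks 15 and 20. For ssc-miR-29b the ranks were 44 and 60. The order of the members by signal was ssc-miR-29a, ssc-miR-29c and ssc-miR-29b on both arrays, but probes differ in binding strength, so this is no order of molecule numbers. Whether the neighbours in this order differ beyond their spread cannot be judged from 1 array per breed.

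The summed miR-29 signal came to 30343 for Bama minipigs against 27005 for Landrace, or 4.36% and 4.02% of all signal on the array. Its log2 ratio of 0.17 turned negative when the arrays were scaled to a common median (-0.096) or to a common 75th percentile (-0.020). Within the summed miR-29 signal, ssc-miR-29b made up 18.5% for Bama minipigs against 11.2% for Landrace.

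The direction for ssc-miR-29a and ssc-miR-29c depended on how the arrays were scaled, and that for ssc-miR-29b did not. Median scaling took ssc-miR-29a to -0.23 and ssc-miR-29c to -0.21, and 75th percentile scaling took them to -0.15 and -0.13. ssc-miR-29b kept the sign, with 0.62 under median scaling, its lowest value among these treatments, and 0.88 when 50 units were added to each signal. The log2 ratio of ssc-miR-29b exceeded that of ssc-miR-29c by 0.83 and that of ssc-miR-29a by 0.85. These differences do not depend on any factor common to a whole array. Quantile normalization, which does more than apply one factor, left them at 0.56 and 0.68.

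**Figure D2:**
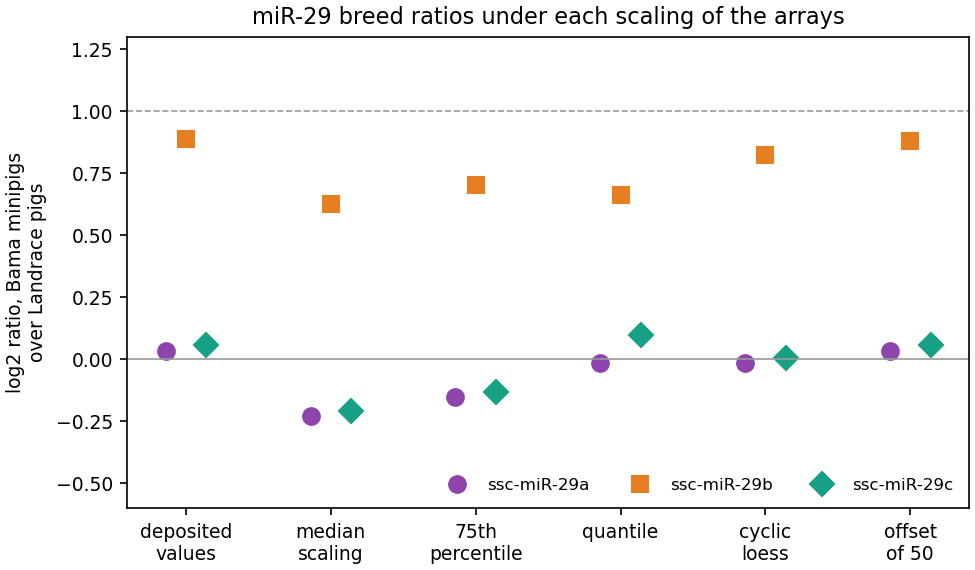
log2 ratio of Bama minipigs over Landrace pigs for each miR-29 probe, from the deposited values and under 5 other treatments of the arrays, with the dashed line at 2-fold. ssc-miR-29b lies between 0.62 and 0.89 in every column, while ssc-miR-29a and ssc-miR-29c lie near 0 and fall below it after median or 75th percentile scaling (ssc-miR-29a also after quantile normalization and cyclic loess).

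Probes of similar strength were used to place these ratios. Over the 98 probes with a signal of 1000 or more on both arrays, the median log2 ratio was 0.0097 and the median size, regardless of sign, was 0.18. The log2 ratio of ssc-miR-29b was exceeded by 9 of the 98 and that of 88 was lower. Among the 9 were ssc-miR-98 and ssc-let-7e of the let-7 family, ssc-miR-204 and 4 added probes with the prefix Y-. ssc-miR-29a and ssc-miR-29c lay near the middle, where 43 and 38 of the 98 had a higher log2 ratio.

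**Figure D3:**
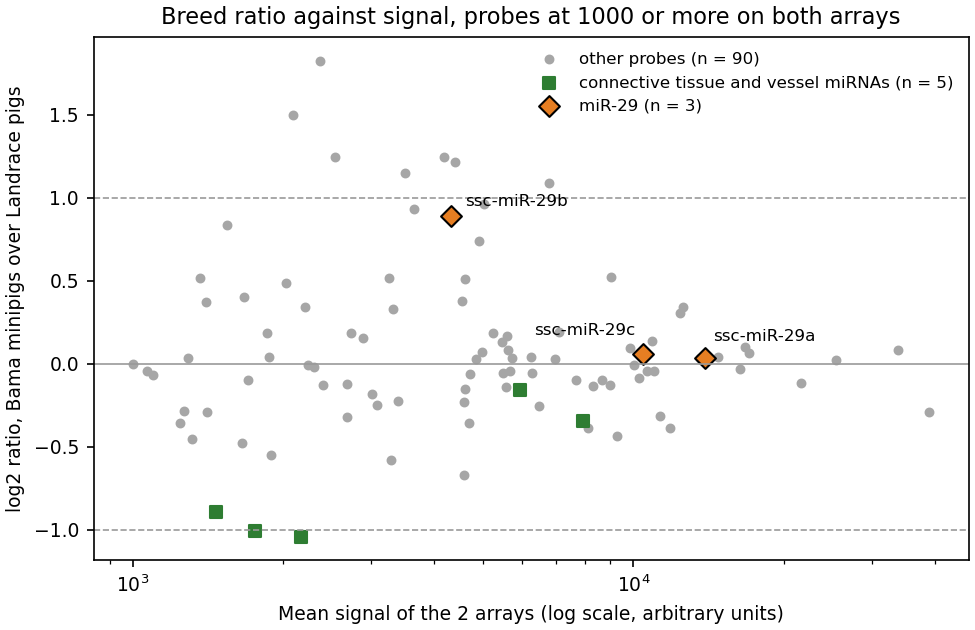
log2 ratio of Bama minipigs over Landrace pigs against the mean signal of the 2 arrays (log axis) for the 98 probes with a signal of 1000 or more on both, each point being 1 probe and the dashed lines 2-fold. ssc-miR-29b sits at 0.89 above most probes of its strength, and ssc-miR-29a and ssc-miR-29c sit at 0.035 and 0.058 (below 0 after median or 75th percentile scaling). The 5 connective tissue and vessel miRNAs that reach this strength all lie below 0, while 49 of the 98 probes lie above 0. The 5 include ssc-miR-199a* and ssc-miR-199a-3p of the same family, and ssc-miR-145 at only -0.16.

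The probes with the pair of signals most like those of each member were found by distance in the plane of the 2 log2 signals. For ssc-miR-29a the nearest probe was ssc-let-7i (13731 against 13441, distance 0.044), followed by ssc-let-7g and ssc-let-7a. For ssc-miR-29c it was ssc-miR-191 (10472 against 10794, distance 0.078), followed by ssc-miR-30b-5p and ssc-miR-23a. The likeness rests on 2 arrays. It describes levels and says nothing of function.

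For ssc-miR-29b the 3 nearest were added probes, and none of the other miRBase miRNAs came as close. Y-56 had 6159 against 2656 (log2 ratio 1.21, distance 0.23). Y-44 had 5890 against 2486 (log2 ratio 1.24, distance 0.29), and Y-84 had 6655 against 3411 (log2 ratio 0.96, distance 0.30).

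The spread of breed ratios inside the family was set beside that of the other seed families. Taking probes with a signal of 1000 or more on both arrays and the same bases 2 to 8, there were 18 families with 49 probes. ssc-miR-29b and ssc-miR-29c were 0.83 apart in log2 ratio, and the median distance between the highest and the lowest member was 0.25 over the 18 families. The let-7 family, with 7 probes, was wider at 1.80, from ssc-let-7i (0.031) to ssc-miR-98 (1.83), and the other 16 families were narrower. The 5 members of the miR-30 family, 5′ arms, lay within 0.29. With ssc-miR-29a added, whose bases 2 to 8 are shifted, the width for miR-29 was 0.85. Joining families in this way, by 6 shared letters near the 5′ end, gave 23 families with a median width of 0.47, of which 5 were wider than miR-29. Among these 5 was the let-7 family, joined with Y-71. Others of the 5 joined miRNAs that are not relatives, such as ssc-miR-149 and ssc-miR-24. The widths are a description of 1 array per breed. A family with more probes also has more chances of a wide range.

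**Figure D4:**
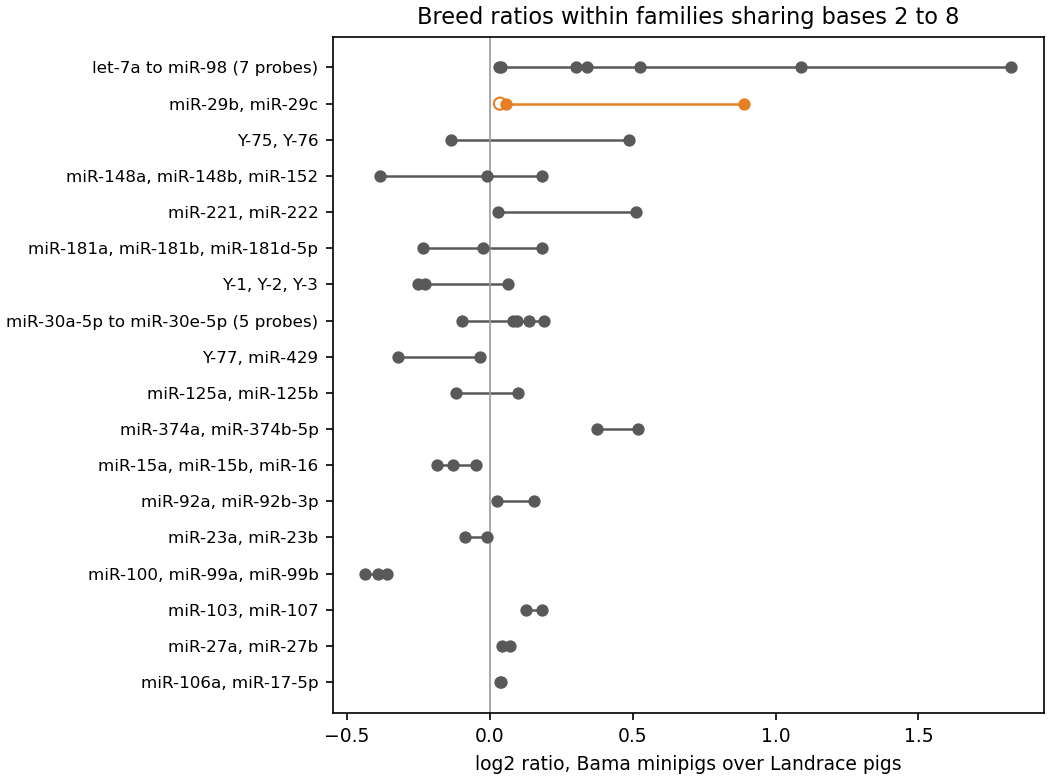
log2 ratio of Bama minipigs over Landrace pigs for each probe (points) in the 18 families that share bases 2 to 8 and have at least 2 probes with a signal of 1000 or more on both arrays, with a line from the lowest to the highest member and families ordered by that width. The miR-29 line (orange) runs from 0.058 for ssc-miR-29c (below 0 after median or 75th percentile scaling) to 0.89 for ssc-miR-29b, the open circle is ssc-miR-29a at 0.035 (below 0 under the same scalings and after quantile normalization and cyclic loess), and the let-7 line is the 1 that is longer.

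The members were also compared along the genome, since both neighbours of the ssc-miR-29b genes showed nearly equal signals in the breeds. This comparison was chosen after the values were seen. miRNA genes at most 10 kb apart in RefSeq gave 25 pairs of different miRNAs with a signal of 1000 or more on both arrays. In these pairs the log2 ratios differed by a median of 0.29. The difference was 0.85 between ssc-miR-29a and ssc-miR-29b, with 4 pairs above it, and 0.83 between ssc-miR-29b and ssc-miR-29c, with 6 above it. Those 4 all included a let-7 family miRNA, for example ssc-let-7f and ssc-miR-98 with a difference of 1.52. The pair ssc-miR-143-3p and ssc-miR-145 lay close to miR-29 with 0.85. Pairs that share a miRNA are not independent, and a miRNA with several genes appears in several pairs. With a minimum signal of 100 there were 48 pairs, of which 16 and 18 exceeded the miR-29 pairs.

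Because the tissue is bulk, fewer cells of a type and less RNA per cell cannot be told apart. Both pools carried the pituitary miRNAs. ssc-miR-7 was the strongest probe on each array and Y-90, listed as miR-375, was next. In the list of 11 miRNAs of connective tissue and vessels, where collagen is made, 10 were lower in Bama minipigs (11 after median scaling or quantile normalization). Over all 355 probes, 182 were higher in Bama minipigs. The 11 are not independent, since some come from the same precursor (such as ssc-miR-143-3p and ssc-miR-143-5p) and several belong to the miR-199 family. ssc-miR-143-5p read only 2.83 against 7.30. The median log2 ratio of the 11 was -0.74, beside 0.031 over all probes, and their summed signal was 18990 for Bama minipigs against 26193 for Landrace. ssc-miR-199a*, from a gene active in fibroblasts, read 1417 against 2919, and ssc-miR-126, known from endothelial cells, read 6981 against 8857. The exception was ssc-miR-214, with 858 against 752. ssc-miR-29b thus lay on the other side of 0 from most of this list, and what part the share of connective tissue had in the miR-29 signals was not tested.

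Among 6 miRNAs of striated muscle, a tissue the dissected gland should lack, the summed signal was 1528 for Bama minipigs against 660 for Landrace, and single signals ranged from 0.829 to 439 and from 4.29 to 278. The list was split, with 3 higher and 3 lower in Bama minipigs. ssc-miR-1 read 426 against 25.1, ssc-miR-133a-3p 370.4 against 79.2 and ssc-miR-133b 439 against 80.6, while ssc-miR-206 read 117 against 278, ssc-miR-499-5p 175 against 192 and ssc-miR-208b 0.829 against 4.29. Of 4 blood cell miRNAs, ssc-miR-451 of red cells read 5286 against 5841, ssc-miR-486, also of red cells, read 208 against 182, and both ssc-miR-142 arms lay under 2 on both arrays. The part of muscle or blood RNA in the miR-29 signals was not tested.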

How the data were processed

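The deposited values were signal intensities of 355 probes (255 for porcine miRNAs of miRBase, 100 added) on 2 single-colour (Cy5) arrays, 1 per breed. Per the study's methods, the authors subtracted the background and normalized the intensities with a LOWESS filter. Scan software versions are not given in the sources used here. From these values log2 ratios of Bama minipigs over Landrace pigs were computed with no pseudocount or filter. With 1 array per breed no test was run.

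Mature sequences were copied from the supplementary array table, of which no value was used. RefSeq names (Sscrofa11.1) matched 227 of the 255 miRBase probes and served only for which genes neighbour each other. Seed matches in collagen 3′-UTRs were not analysed here.

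Named are all members, probes holding a member's bases 2 to 8, the 3 nearest probes per member, and members of fixed lists. Members were found by name, but the family, the lists and the comparisons were chosen with earlier results of these data known. Alternatives were median, 75th percentile, quantile and cyclic loess scaling (limma 3.58.1, 3 iterations, R 4.3.3), an offset of 50, and signal minimums of 100, 500 and 1000. A log2 value counted as unchanged within 0.1 and a count, rank or share within a factor of 1.5. The scalings were run on simulated data with larger changes than the miR-29 ratios and equal noise at all signals. That run does not show how well they handle smaller ratios or weak probes. Python 3.11.15, numpy 2.4.6, pandas 2.3.3 and matplotlib 3.10.9 were used.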

Additional observations from a re-analysis of the deposited data

How the results depend on the processing

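No miR-29 probe passed 2-fold under any of the scalings or the offset, and at 1.5-fold, a limit added after the data were seen, 1 did. Median scaling gave log2 ratios of -0.23 for ssc-miR-29a, 0.62 for ssc-miR-29b, -0.21 for ssc-miR-29c and -0.096 for their sum. The 75th percentile gave -0.15, 0.70, -0.13 and -0.020, and over probes of 100 or more on both arrays -0.085, 0.77 and -0.062 for the 3 members. Quantile normalization gave 0.66 for ssc-miR-29b, 0.56 for its distance from ssc-miR-29c, which is also the width of the seed family, and 0.68 for that from ssc-miR-29a. These scalings moved the median of all probes from 0.031 to -0.23, -0.16, -0.089 and -0.066, respectively. The seed family wider than miR-29 was 1 under each scaling and signal minimum, and 5 when families were joined by any shared 6 letters near the 5′ end, which also joined unrelated miRNAs.

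The number of probes 2-fold or more higher and lower in Bama minipigs, 69 and 54, was 23 and 4 with an offset of 50, 17 and 4 at a minimum signal of 100, 10 and 2 at 500, and 7 and 2 at 1000. The share of higher probes among them went from 56.1% to 43.4% after median scaling and 85.2% with the offset. The median of the connective tissue and vessel list, -0.74, was -1.01 after median scaling, -0.93 after the 75th percentile, -0.97 after quantile normalization, -0.87 after loess and -0.60 with the offset. Neighbouring pairs with a larger difference than ssc-miR-29a and ssc-miR-29b rose from 4 to 11 at a minimum of 500 and 16 at 100, and for ssc-miR-29b and ssc-miR-29c from 6 to 13 and 18, as more pairs entered. Ranks and shares of signal stayed within a factor of 1.5. No paired analysis applied, because the breeds were different pigs with nothing to pair them, and each breed had 1 array. Whether any difference exceeds that between pigs cannot be told from these arrays.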

Other observations

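Listed length and base composition were looked at because ssc-miR-29b is short. Of the 98 probes with a signal of 1000 or more on both arrays, 3 have 20 bases: ssc-miR-29b with a log2 ratio of 0.89, Y-71 with 0.74 (6152 for Bama minipigs against 3687 for Landrace) and ssc-miR-411 with -0.13 (2298 against 2511). Across the 98 probes, Spearman's rho of the log2 ratio was 0.011 with listed length and -0.11 with GC content. These are descriptions across probes of the same 2 arrays.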
